A study of Mus musculus with 8 samples.

Results

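The matrix metalloproteinases (Mmp genes), the ADAMTS proteases (Adamts genes) and their tissue inhibitors (Timp genes) were examined in mouse embryonic fibroblasts (MEFs) with and without SLMAP3, a membrane-anchored protein of the centrosome and of the STRIPAK phosphatase and kinase complex. All genes whose symbol is Mmp, Adamts or Timp followed by a number were taken, which gave 46 of the 55401 genes listed, namely 23 Mmp, 19 Adamts and 4 Timp genes. The filter on low counts kept 32 of the 46, against 15461 of the 55401 genes of the whole table.

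The comparison is between 4 SLMAP3-/- lines and 4 WT lines, with 1 RNA-seq library per line. Each line was grown from a different B6C3F1 embryo at E14.5, taken as the trunk without head and organs. All 8 lines, of either genotype, were immortalized with SV40 large T antigen, and none received a further treatment. The knockout is global: a floxed exon of Slmap had been removed by a Cre under the CMV promoter. Replicates are separate embryos, each seen through 1 immortalized line, and the p-values measure the spread between such lines.

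MMPs are secreted or membrane-anchored endopeptidases that hold zinc in the active site and are made as zymogens, with a propeptide that must be removed or displaced. Between them they cut collagens, gelatin, proteoglycans and glycoproteins of the extracellular matrix, and fibroblasts are a main source of several. ADAMTS proteases are secreted, carry thrombospondin motifs that bind matrix, and cut proteoglycans such as versican and aggrecan or the propeptides of fibrillar collagens. TIMPs bind the active site and block it, and Timp3, which stays bound to matrix, also inhibits several ADAMTS and ADAM proteases.

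The deposited values are counts that Salmon estimated for each gene, and they totalled 49879059 to 63322486 per line. Levels are TMM-normalized CPM, which put the counts of all libraries on a common scale, and levels of different genes are compared only as CPM per kb of the longest coding transcript. Slmap itself was at 32.7 to 44.3 CPM where SLMAP3 was knocked out and at 124 to 143 CPM in WT lines, so every library matched its label. By edgeR's quasi-likelihood method it alone reached an adjusted p under 0.05 (log2 fold change -1.84, SE 0.11, adjusted p = 0.00119). All 8 fibroblast markers passed the filter, and their summed level was 7380 to 11361 CPM, most of it Col1a1 and Col1a2. Dcn and Lum, also fibroblast markers, were low, at 0.323 to 14.8 and 0.113 to 18.5 CPM. Of 7 macrophage and neutrophil markers 2 passed the filter, Cd68 at 1.91 to 4.70 CPM and Csf1r at 0.170 to 1.19 CPM, while Ptprc and Adgre1 were at most at 0.180 and 0.0193 CPM. Of 5 endothelial markers 2 passed, Kdr at 7.87 to 28.4 CPM and Tek at 1.55 to 12.2 CPM, while Pecam1 and Cdh5 were at most at 0.227 and 0.200 CPM. WT replicate 1 stood apart in Pdgfra, a fibroblast receptor, at 17.4 CPM against 79.0 to 179 CPM in the other 7 lines. The 46 genes together took 0.247% of all counts in that line and 0.321 to 0.381% in the others.

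Of the 46 genes, 10 lie side by side in a cluster on chromosome 9 with no other coding gene between them (chr9:7272514-7699585, GRCm38), in the order Mmp13, Mmp12, Mmp1b, Mmp3, Mmp1a, Mmp10, Mmp8, Mmp27, Mmp20 and Mmp7. Most of the cluster was at or near 0 in these fibroblasts: 3 of its genes passed the filter (Mmp3, Mmp13 and Mmp10), and the other 7 had at most 2 counts in any line. Of the 36 members elsewhere in the genome, 29 passed. RefSeq promoters (GRCm38.p6, 250 bases before to 50 bases after the start) were at hand for 32 of the 46 members, all 10 cluster genes among them. The 250 bases before the start were searched on both strands for TGANTCA. This pattern takes in TGAGTCA and TGACTCA, the core that the AP-1 factors Fos and Jun bind. It is looser than that core, and the match of Mmp20 was TGAATCA, outside the core. TGANTCA was found in 8 of the 10 cluster genes and in 0 of the 22 others, while 6.75% of all 32851 promoters held it. The windows of 30 bases around it are shown for the 8 genes that held it, expressed or not. Each is written 5′ to 3′ on the strand of its gene, with the motif in capitals.
Mmp13, chr9:7272468-7272497, plus strand: ccccaaagtggTGACTCAtcactatcatgc
Mmp3, chr9:7445765-7445794, plus strand: ggaagcaattaTGAGTCAgttttcgggtga
Mmp10, chr9:7502268-7502297, plus strand: tagcacccatgTGAGTCAtgcttagtgacc
Mmp12, chr9:7347319-7347348, plus strand: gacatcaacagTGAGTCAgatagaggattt
Mmp1b, chr9:7388101-7388130, minus strand: gttacaaagccTGAGTCAtatagcctctgg
Mmp1a, chr9:7464057-7464086, plus strand: gttgtcaaccaTGAGTCAcatagcctctgg
Mmp20, chr9:7628125-7628154, plus strand: catttgagacaTGAATCAtcacttacaggg
Mmp7, chr9:7692016-7692045, plus strand: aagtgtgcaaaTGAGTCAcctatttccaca

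The motif lay 35 to 95 bases before the start in these genes. For Mmp12 and for Mmp7 it was in 1 of the 2 promoters listed. Mmp8 and Mmp27 were the cluster genes without it. The first 3 windows belong to the expressed genes of the cluster and the last 5 to genes with at most 2 counts in any line, so the letters alone did not separate them. TATAAA, the core of the TATA box, stood in 25.7% of the 35 member promoters and in 12.4% of all promoters, and both motifs together in 20.0% and 1.21%. Every member promoter with both motifs belonged to a cluster gene. Outside the cluster TATAAA stood only in the promoters of Adamts1 and Mmp21, so these shares describe the cluster and not the members at large. These matches are descriptions of sequence, and no binding was measured.

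The inhibitors were the most abundant of the 3 families per unit of transcript length. Summed per kb, the Timp genes reached 453 to 733 CPM per kb across the 8 lines, the Mmp genes 186 to 317 and the Adamts genes 75.1 to 159. TIMP transcripts were thus 55.0 to 68.8% of the members' sum, and the ratio of TIMP to protease transcripts was 1.22 to 1.93 across the SLMAP3-/- lines and 1.39 to 2.21 across the WT lines. Within the proteases a pair of genes led: Mmp14 held 57.3 to 82.4% of the MMP sum and Adamts1 47.8 to 63.4% of the ADAMTS sum. These are RNA levels, and since MMPs are made inactive they say nothing of enzyme activity.

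In order of mean level per kb, Timp2 (309 CPM per kb), Mmp14 (176), Timp1 (143), Timp3 (135), Adamts1 (56.2) and Mmp2 (40.8) came first, followed by Adamts5 (13.0), Mmp11 (12.4), Mmp23 (8.11) and Mmp19 (7.33). Timp2 stood clear of the gene below it, its lowest line (258) being above the highest of Mmp14 (215). From Mmp14 downward each of these genes overlapped the next in its range over lines. The ranges of Mmp14, Timp1 and Timp3 (130 to 215, 80.7 to 209 and 50.1 to 218 CPM per kb) lay largely on top of each other. With the median transcript length in place of the longest, 9 of these 10 genes were again among the 10 highest, but values and order moved. Timp2 was then at 518 CPM per kb, Timp3 at 250, above Mmp14 at 220, and Mmp2 and Mmp11 at 67.0 and 23.1.

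**Figure D1:**
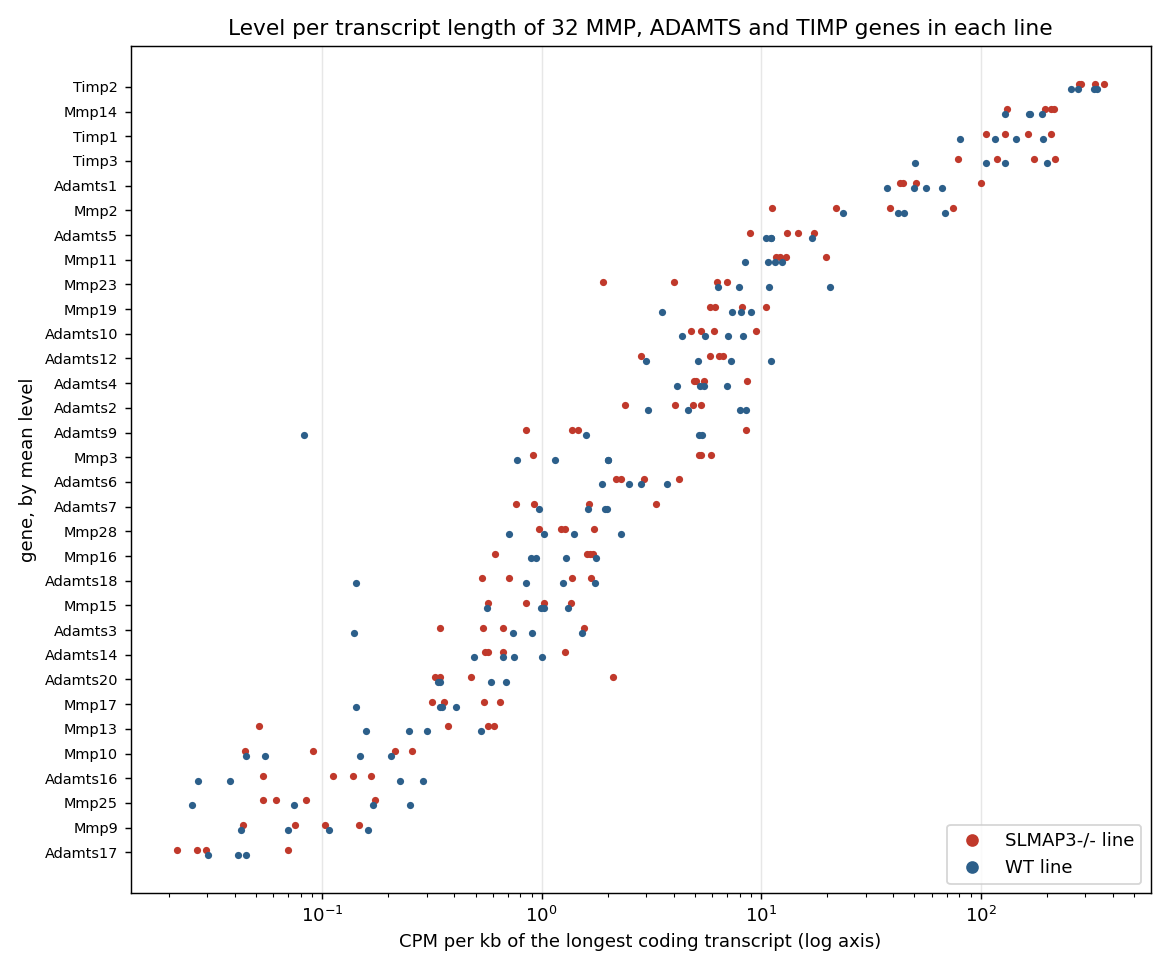
Level of each of the 32 expressed genes in CPM per kb of transcript (log axis), a point per line coloured by genotype, genes ordered by mean level from Timp2 (309) downward. The points of both genotypes overlap in every gene, and Adamts17 in WT replicate 1 is not drawn because its count was 0.

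No member passed the threshold between SLMAP3-/- and WT lines in edgeR's test, of 32 tested, where 0.00647% of all tested genes did (Slmap alone), and the adjusted p of every member rounded to 1.00. At an unadjusted p under 0.05, 2 of the 32 (6.25%) were found, against 1.81% of all tested genes: Mmp3 with the higher mean in SLMAP3-/- lines, as 0.964% of all genes were, and Mmp23 with the lower, as 0.847% were. DESeq2, limma-voom and every other setting tried also gave 0 members at an adjusted p under 0.05. Of all genes tested, DESeq2 gave 11 of 33915 at that threshold and limma-voom 1 of 15461. In none of the 32 did the 4 SLMAP3-/- lines lie wholly to 1 side of the 4 WT lines, which 1.25% of all tested genes did. Fitted fold changes were above 0 for 21 of 32 (65.6%), against 49.5% of all genes, with a median log2 fold change of 0.0971 against -0.00140 over all genes. With 4 lines against 4, an exact permutation test cannot go below 0.0286, and the lowest value among the 32 members was 0.0571, for Mmp23. Adamts8 and Adamts15, which did not pass the filter, had the same exact permutation p of 0.0571. In bulk RNA of this kind, fewer cells that make a transcript and less of it per cell cannot be told apart.

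**Figure D2:**
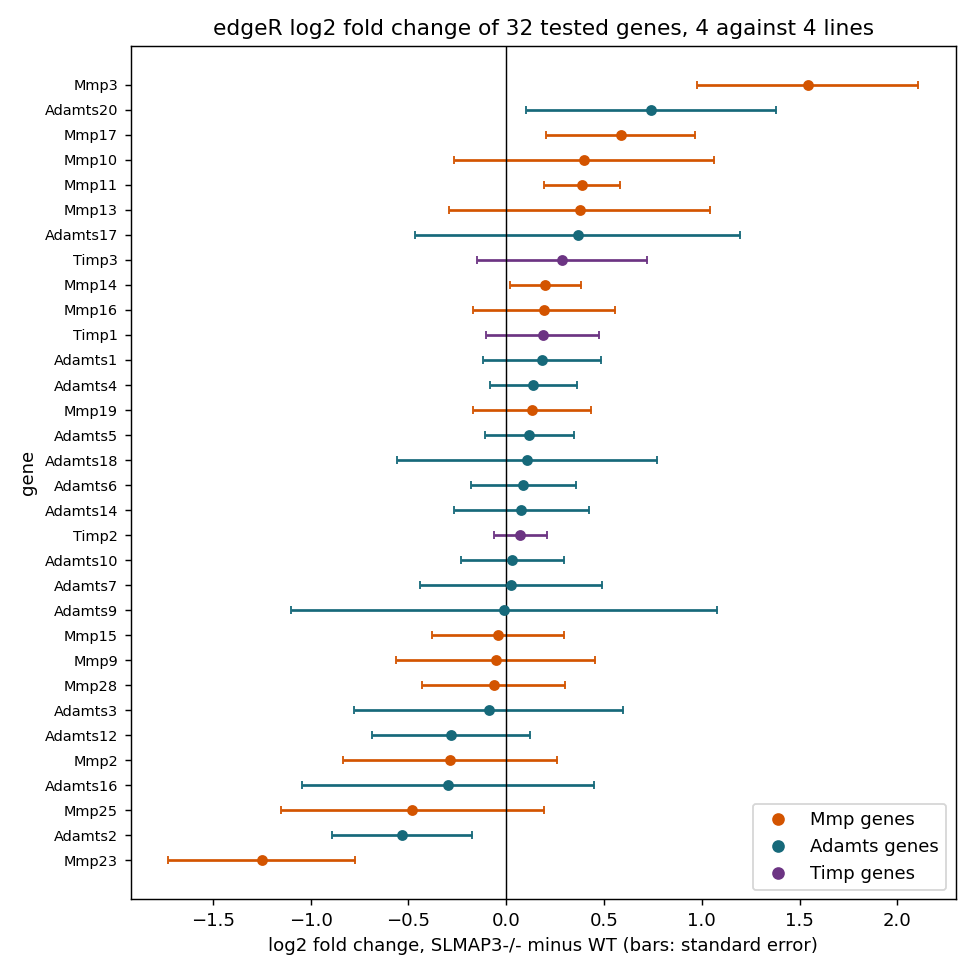
Log2 fold change, SLMAP3-/- minus WT, of the 32 expressed genes with bars of 1 standard error from edgeR. The values run from -1.25 (Mmp23) to 1.54 (Mmp3), and no gene passed an adjusted p of 0.05.

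Among the inhibitors, Timp2 (chr11:118301069-118355740), which besides blocking MMPs helps Mmp14 to activate pro-MMP2 at the cell surface, had the smallest spread of the 32 members that passed the filter. It was at 1236, 1356, 1068 and 1040 CPM in SLMAP3-/- replicates 1 to 4 and at 956, 1261, 1221 and 1030 CPM in WT replicates 1 to 4. The genotypes overlapped throughout (log2 fold change 0.07, SE 0.13). Timp1 (chrX:20870166-20874735), a secreted inhibitor induced by growth factors, was at 93.4, 185, 114 and 145 CPM in SLMAP3-/- lines and at 128, 170, 71.3 and 103 CPM in WT lines. The genotypes overlapped over most of their range, and the lowest line was WT replicate 3. Timp3 (chr10:86300372-86349506) was at 1028, 562, 371 and 829 CPM in SLMAP3-/- lines and at 236, 948, 498 and 610 CPM in WT lines. It differed 4.35-fold between its highest line, SLMAP3-/- replicate 1, and its lowest, WT replicate 1, with no order by genotype (log2 fold change 0.28, SE 0.43). Timp1, Timp3 and Timp4 each lie inside a synapsin gene. Timp3 shares 1733 exonic bases with Syn3 on the opposite strand, but Syn3 was at most at 0.177 CPM. Timp4 was not expressed to a usable level, with at most 23 counts in any line.

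Mmp14 (chr14:54431612-54445364), the membrane-anchored collagenase that activates pro-MMP2, was the leading protease. It was at 425, 696, 638 and 678 CPM in SLMAP3-/- lines and at 544, 420, 618 and 540 CPM in WT lines. In 3 SLMAP3-/- lines it was above all WT lines, while SLMAP3-/- replicate 1 was at the level of the lowest WT line (log2 fold change 0.20, SE 0.18). Mmp2 (chr8:92827291-92853420), the gelatinase it activates, was at 67.2, 34.6, 231 and 119 CPM in SLMAP3-/- lines and at 129, 212, 72.9 and 138 CPM in WT lines. Its lowest and its highest line were both SLMAP3-/- lines and differed 6.68-fold. Mmp9, the other gelatinase, known from leukocytes, stayed at 0.135 to 0.516 CPM in every line.

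The other membrane-anchored members were low. Mmp15 and Mmp16 lay at 2.88 to 7.00 and 3.09 to 8.91 CPM, and Mmp25, known from leukocytes, at 0.116 to 1.14 CPM. Mmp17, which is held by a lipid anchor, was at 2.03, 4.14, 2.30 and 3.53 CPM in SLMAP3-/- lines and at 0.919, 2.21, 2.25 and 2.62 CPM in WT lines. Its genotypes overlapped (log2 fold change 0.58, SE 0.38, exact permutation p = 0.229). Mmp24 had at most 14 counts in any line.

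Mmp23 (chr4:155650655-155653384), whose product is anchored by its propeptide, had the most negative fold change of the members tested. It was at 10.0, 9.01, 5.77 and 2.74 CPM in SLMAP3-/- lines and at 9.11, 11.4, 15.6 and 29.4 CPM in WT lines. A single pair of lines overlapped, SLMAP3-/- replicate 1 lying above WT replicate 1. The log2 fold change was -1.25 with an SE of 0.48, an unadjusted edgeR p of 0.0290 and an exact permutation p of 0.0571. Without WT replicate 4, the highest line, the log2 fold change was -0.80 with an unadjusted edgeR p of 0.0983. The p was also above 0.05 without SLMAP3-/- replicate 3 or 4 (0.0676 and 0.0523) and with the replicate number as a block (0.116). The unadjusted p was smaller in DESeq2 (0.00633) and in edgeR without a filter on low counts (0.0111). The adjusted p of Mmp23 was 0.955 and 0.786 in these 2 fits. WT replicate 4 also held the highest summed level of the cartilage list, 427 CPM against 52.8 to 181 CPM in the others. Col10a1, the collagen of hypertrophic cartilage, made up 361 CPM of it, and Matn1 was at most at 0.0803 CPM in any line. Sox9 was also highest in WT replicate 4, at 36.2 CPM. Col2a1 was highest in SLMAP3-/- replicate 4, the lowest line of Mmp23, at 27.1 CPM against 25.5 CPM in WT replicate 4. Acan was highest in WT replicate 2, at 13.7 CPM against 4.54 CPM in WT replicate 4. The part of cartilage cells in the level of Mmp23 was not tested.

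Among the stromelysins, Mmp3 (chr9:7445822-7455975), which cuts proteoglycans and fibronectin and activates other pro-MMPs, had the highest fold change of the members tested. It was at 1.64, 9.37, 9.56 and 10.7 CPM in SLMAP3-/- lines and at 2.08, 1.39, 3.63 and 3.62 CPM in WT lines. In 3 SLMAP3-/- lines it was above every WT line, and SLMAP3-/- replicate 1 fell among the WT lines. The log2 fold change was 1.54 with an SE of 0.56, an unadjusted edgeR p of 0.0242 and an exact permutation p of 0.114. Without SLMAP3-/- replicate 1 the genotypes did not overlap, as held for 2.77% of all genes tested without that line. The unadjusted edgeR p was above 0.05 without SLMAP3-/- replicate 2, 3 or 4 (0.0517, 0.0537 and 0.0616). The same held without WT replicate 1 or 2 (0.0575 and 0.0590). It was smaller without SLMAP3-/- replicate 1 (0.000854) and without a filter on low counts (0.00871). The unadjusted p was 0.0943 in limma-voom and 0.00341 in DESeq2. In none of these fits was the adjusted p of Mmp3 under 0.05. Mmp10, a closely related stromelysin, lay at 0.0767 to 0.440 CPM. Of Mmp3's stretches of 31 bases, 14.6% also occur in other genes' transcripts, 202 of them in Mmp10, so reads of this pair are divided by estimate.

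Mmp11, also named stromelysin-3 and activated inside the cell by furin, was at 27.9, 26.7, 45.0 and 29.6 CPM in SLMAP3-/- lines and at 26.4, 19.3, 24.6 and 28.4 CPM in WT lines. The genotypes overlapped at WT replicate 4 (log2 fold change 0.39, SE 0.20). Mmp13, the collagenase of cartilage and bone, was at 0.138, 1.00, 1.53 and 1.63 CPM in SLMAP3-/- lines and at 0.806, 0.426, 0.662 and 1.41 CPM in WT lines. Its lowest line was SLMAP3-/- replicate 1, which was also the lowest SLMAP3-/- line of Mmp3. The other collagenases Mmp1a, Mmp1b and Mmp8 had at most 2 counts in any line.

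Of the remaining secreted MMPs, Mmp19, which cuts basement membrane proteins, was at 27.8, 20.9, 35.7 and 19.9 CPM in SLMAP3-/- lines and at 12.0, 25.0, 30.7 and 27.6 CPM in WT lines. The lowest line was WT replicate 1, and the genotypes overlapped (log2 fold change 0.13, SE 0.30). Mmp28, or epilysin, lay at 2.43 to 7.89 CPM. Mmp12, Mmp21 and Mmp27 had at most 2 counts in a line. Mmp7, the matrilysin of glands, and Mmp20, the enamelysin of teeth, were at 0 counts in all 8 lines, which allows up to 3 counts or 0.0482 to 0.0600 CPM in a line by counting error alone.

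**Figure D3:**
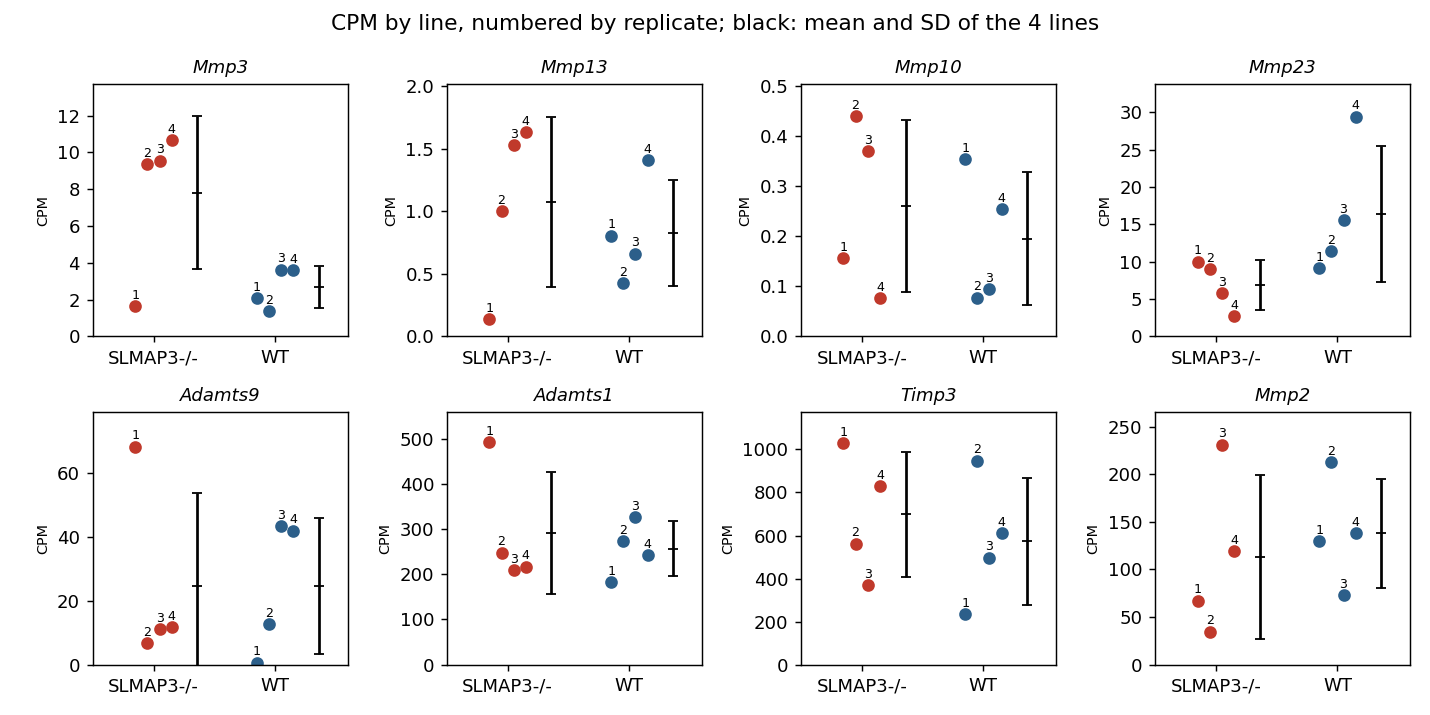
Level in CPM of 8 members by line, SLMAP3-/- and WT, with bars for the mean and 1 SD (n = 4 lines each, the bar of Adamts9 in SLMAP3-/- lines cut at 0). Mmp3 and Mmp23 show the largest fold changes, each with overlap between the genotypes.

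The ADAMTS proteases that cut proteoglycans were led by Adamts1 and Adamts5, neighbours on chromosome 16 that lie 53.1 kb apart. Adamts1 (chr16:85793827-85803113), a versican-cutting protease needed for ovulation, was at 492, 248, 209 and 217 CPM in SLMAP3-/- lines and at 184, 274, 327 and 242 CPM in WT lines. SLMAP3-/- replicate 1 was far above the other lines, which overlapped (log2 fold change 0.18, SE 0.30). Adamts5 (chr16:85856173-85901828), a main aggrecanase of mouse cartilage, was at 187, 158, 141 and 95.7 CPM in SLMAP3-/- lines and at 120, 184, 119 and 114 CPM in WT lines. It too was highest in SLMAP3-/- replicate 1, but only just above WT replicate 2. Adamts4, the other main aggrecanase, was at 18.2 to 37.9 CPM.

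Adamts9 (chr6:92772699-92943492), a versican-cutting protease also found at the base of primary cilia, had the largest spread between lines of the 32 members that passed the filter. It was at 68.2, 6.80, 11.1 and 11.8 CPM in SLMAP3-/- lines and at 0.661, 12.7, 43.3 and 41.9 CPM in WT lines. The highest line was 103 times the lowest, yet the means of both genotypes were nearly equal, at 24.5 ± 29.2 and 24.7 ± 21.3 CPM (SD, n = 4 each). Adamts20, its closest relative by sequence, was at 14.6, 2.36, 3.29 and 2.26 CPM in SLMAP3-/- lines and at 2.37, 4.74, 4.05 and 2.31 CPM in WT lines. Its log2 fold change of 0.74 (SE 0.64) rested on SLMAP3-/- replicate 1 and was -0.35 without that line. Adamts9 shares 1381 exonic bases with A730049H05Rik on the opposite strand, as Mmp19 does 789 with Tmem198b, and whether strand was used in counting is not given in the sources used here. Adamts8 and Adamts15, neighbours on chromosome 9 that lie 20.1 kb apart, did not pass the filter. Adamts8, known as an inhibitor of vessel growth, had 1, 14, 34 and 4 counts in SLMAP3-/- lines and 0, 2, 0 and 0 in WT lines. Only SLMAP3-/- replicate 1 lay within the WT range, at levels where counting error is large. Adamts15 had at most 16 counts in any line.

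The highest and the lowest line differed from member to member. SLMAP3-/- replicate 3 was the highest line for 7 of the 32 members, Mmp2, Mmp11 and Mmp19 among them, against 13.0% of all tested genes. SLMAP3-/- replicate 2 was the highest for 6, Timp1, Timp2 and Mmp14 among them, against 7.67% of all genes. SLMAP3-/- replicate 1 was also the highest for 6 (Timp3, Adamts1, Adamts5, Adamts9, Adamts3 and Adamts20), against 10.9% of all genes. In that line the endothelial list summed to 40.5 CPM, against 9.47 to 30.0 CPM in the others, all but a trace of it from Kdr and Tek, with Pecam1, Cdh5 and Emcn at or below 0.227 CPM in every line. WT replicate 1 was the lowest line for 11 of the 32, Timp2, Timp3, Adamts1 and Adamts9 among them, against 17.9% of all tested genes. WT replicate 2 was the lowest for 9, Mmp14 and Mmp3 among them, against 11.2%, and SLMAP3-/- replicate 4 for 7, against 16.6%.

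The procollagen N-propeptidases trim fibrillar collagens. Adamts2 was at 38.6, 29.5, 17.4 and 35.7 CPM in SLMAP3-/- lines and at 33.6, 22.1, 58.0 and 61.8 CPM in WT lines. The 2 highest lines were WT lines and the lowest was SLMAP3-/- replicate 3, with overlap between (log2 fold change -0.53, SE 0.36, exact permutation p = 0.314). Adamts3 was at 6.16, 2.62, 1.35 and 2.13 CPM in SLMAP3-/- lines and at 0.548, 3.56, 2.91 and 6.04 CPM in WT lines. Its highest and lowest lines differed 11.2-fold and belonged to different genotypes, yet the fold change between genotypes was near none (log2 -0.09, SE 0.69). Adamts14 lay at 2.55 to 6.65 CPM.

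Adamts12 and Adamts7, which cut the cartilage protein COMP, lay at 24.3 to 94.9 and 4.10 to 17.8 CPM. Adamts10 and Adamts6, related proteases linked to fibrillin microfibrils, lay at 17.6 to 38.5 and 12.2 to 27.5 CPM. Adamts18 was at 9.47, 7.78, 3.02 and 3.99 CPM in SLMAP3-/- lines and at 0.806, 9.87, 7.10 and 4.78 CPM in WT lines. WT replicate 1 was again the lowest and the others overlapped. Adamts16 was at 0.831, 0.560, 0.691 and 0.268 CPM in SLMAP3-/- lines and at 1.44, 0.135, 0.189 and 1.12 CPM in WT lines, where the WT lines fell at both ends of the range. Adamts17 was at most at 0.450 CPM. Adamts13, the protease of von Willebrand factor that is made in liver, had at most 10 counts in any line. Adamts19 was not kept by the filter because it was present in only 2 lines, with 326 counts in WT replicate 3, 82 in SLMAP3-/- replicate 1 and 0 to 2 elsewhere.

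**Figure D4:**
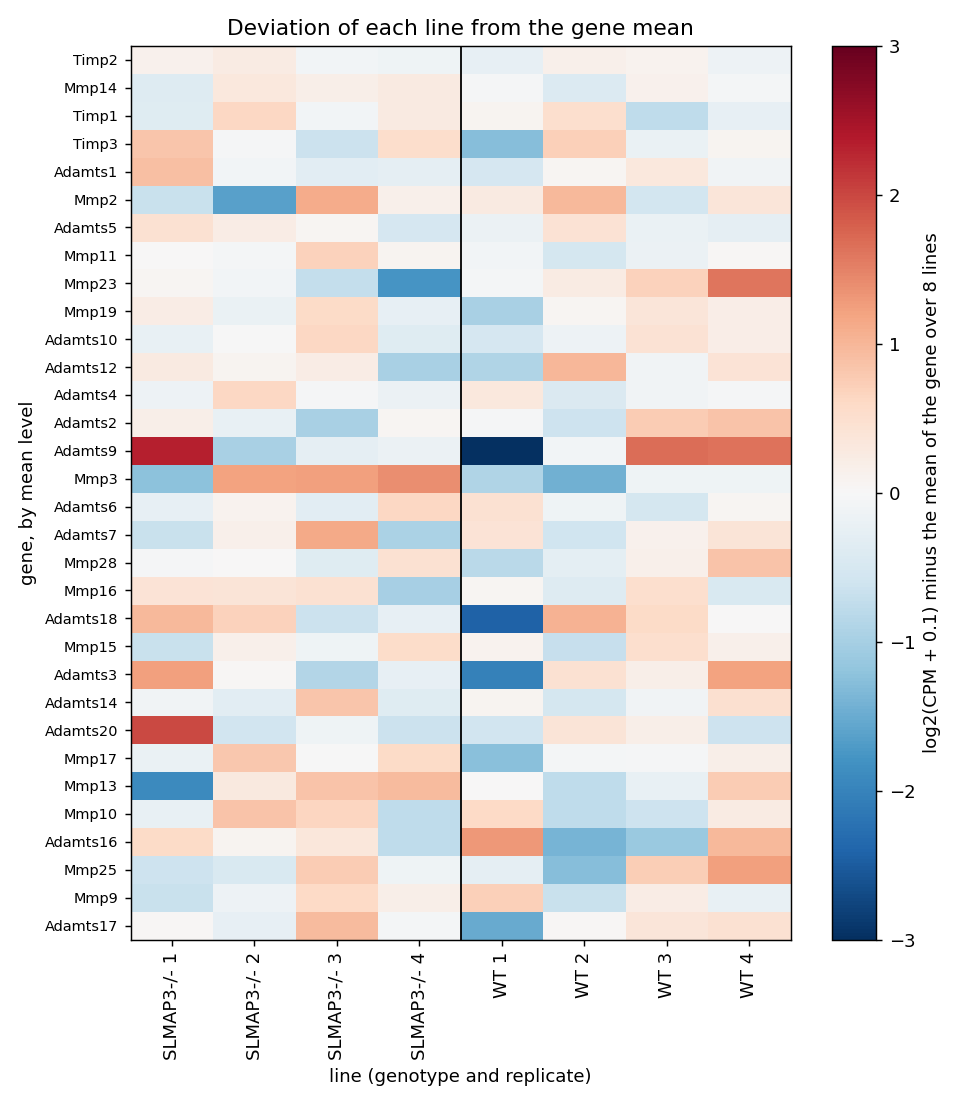
Heat map of the 32 expressed genes (rows) in the 8 lines (columns), as the deviation of log2(CPM + 0.1) from the mean of the gene, with colours ending at -3 and 3. SLMAP3-/- replicate 1 and WT replicate 1 carry the strongest single deviations, Adamts9 among them, and no gene sets all 4 SLMAP3-/- lines apart from all 4 WT lines.

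Lines of the same genotype differed widely in these transcripts. As the SD of log2 CPM within genotype, pooled over both, the median spread of the 32 members was 0.650, against 0.275 for all tested genes, and it ranged from 0.186 (Timp2) to 2.23 (Adamts9). The spread exceeded 0.5 in 22 of the 32 (68.8%), against 27.3% of all genes. The highest line was over 10 times the lowest in 7 (21.9%), against 7.96% of all genes, and over 2 times in 29 (90.6%), against 40.9%. All tested genes were also ranked by mean log2 CPM and cut into 4 equal bins. The members lay above the median spread of their bin in 6 of 6, 13 of 13, 6 of 6 and 7 of 7 cases from the lowest bin to the highest. With each line left out in turn, the members' median spread lay between 0.577 (without WT replicate 1) and 0.710 (without SLMAP3-/- replicate 2). It was 0.595 without SLMAP3-/- replicate 1. These counts are descriptions with no test, because the genes share the same 8 lines.

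**Figure D5:**
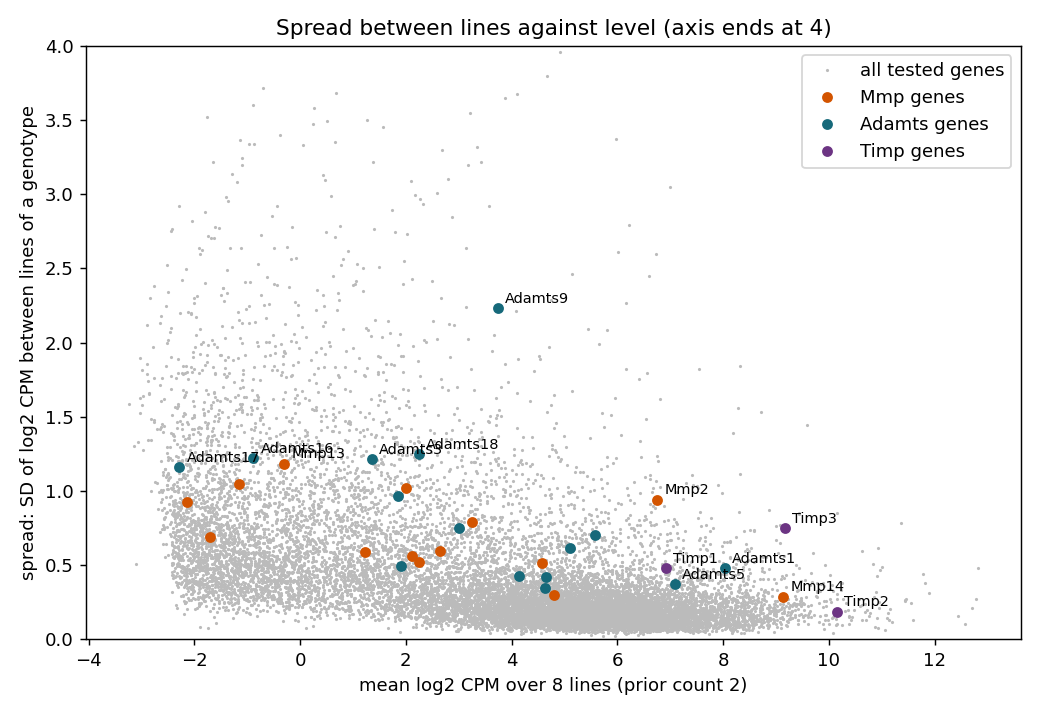
Spread between lines (SD of log2 CPM within genotype) against mean log2 CPM for all tested genes in grey and the 32 members in colour, on an axis ending at 4, which leaves out 10 genes and no member. Most members lie above the bulk of genes of the same level, with Timp2 lowest at 0.186 and Adamts9 highest at 2.23.

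The other genes of the pathway were followed on a list of 50 inhibitors, activators, ADAMTS-like proteins, ADAM proteases and substrates, of which 40 passed the filter. In edgeR 0 of the 40 passed the threshold, against 0.00647% of all tested genes. An unadjusted p under 0.05 was found for 0, against 1.81%, and in 0 did the genotypes lie apart, against 1.25%. The fitted fold change was above 0 in 16 of 40 (40%), against 49.5% of all genes. Its median was -0.11 (log2) against -0.00140, and the median spread was 0.581 against 0.275. The leading genes by level per kb are given by group of the list. A group name does not mean that each gene in it inhibits or activates a protease. Fn1 and Bgn led the substrates (860 and 859 CPM per kb). Serpinh1 led the group of other inhibitors and clearance receptors (588), and Bsg and Sdc4 the group of activators (359 and 130). Adam9 and Adam10 led the ADAMs (70.8 and 46.4), and Adamtsl3 and Adamtsl5 the ADAMTS-like proteins (17.3 and 12.1). Bsg, a membrane protein that induces MMPs, differed 1.15-fold between its highest and lowest line.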

How the data were processed

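RNA of 4 SLMAP3-/- and 4 WT lines of immortalized MEFs was sequenced from stranded mRNA libraries. The authors assigned the reads to GENCODE M25 transcripts of GRCm38 with Salmon and deposited an estimated count for each gene and line, scaled for transcript length. The versions of Salmon and its strand setting are not given in the sources used here. A second deposited table holds the authors' DESeq2 comparison (fold changes, standard errors and p-values), which was not used.

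Estimated counts were rounded. In R 4.3.3, edgeR 4.0.16 kept genes by filterByExpr (minimum count 10), normalized by TMM and tested SLMAP3-/- against WT lines over 15461 genes by glmQLFTest, with Benjamini-Hochberg adjustment and a threshold of 0.05. CPM are TMM-normalized, and their log2 was taken with a prior count of 2. Permutation tests were exact and two-sided over 70 arrangements. Transcript lengths, neighbours and overlaps came from GENCODE M21 (GRCm38), and promoters from RefSeq (GRCm38.p6). The edgeR, DESeq2 and limma-voom fits were tested on simulated data.

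Members described line by line were the 10 with the highest level per kb, those with an unadjusted p under 0.05 or no overlap, the 5 with the largest fold change and the 5 with the largest spread. From the pathway list, the 2 highest genes of each role were named, except 1 that is not reported here. The members, the lists and this rule were chosen with earlier results of these data known. Alternatives were DESeq2 1.42.0, limma-voom (limma 3.58.1), other size factors, filters, prior counts and thresholds, unrounded counts, robust estimation, the replicate number as a block, and leaving out each line. Adamts8, Syn3, A730049H05Rik and Tmem198b were named after their values or positions were seen. Depths of 49879059 to 63322486 counts make counting error small for the abundant members, and it is larger for those with few counts.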

Additional observations from a re-analysis of the deposited data

Results flagged for a closer look

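In 10 of the 66 groups of 4 lines tested (32 members and Slmap in both genotypes), a line stood away from the other 3 by more than Dixon's 95% critical value for the ratio of its gap to the group's whole range. The ratios were taken on CPM and not on log2 CPM, and on this scale a single high line stands out more. For normally distributed values about 1 in 20 groups, or 3.3 of 66, would be flagged. Among all tested genes 5.91% of such groups were flagged, against 15.2% here. SLMAP3-/- replicate 1 was high for Adamts1 (ratio 0.862, 492 CPM against 209 to 248), for Adamts9 (0.919, 68.2 CPM against 6.80 to 11.8) and for Adamts20 (0.916, 14.6 CPM against 2.26 to 3.29). The same line was low for Mmp3 (0.855, 1.64 CPM against 9.37 to 10.7). SLMAP3-/- replicate 3 was high for Mmp11 (0.839, 45.0 CPM against 26.7 to 29.6), for Adamts14 (0.849, 6.65 CPM against 2.88 to 3.45) and for Adamts17 (0.837, 0.450 CPM against 0.140 to 0.190). SLMAP3-/- replicate 2 was high for Adamts4 (0.850, 37.9 CPM against 21.7 to 24.1), and SLMAP3-/- replicate 4 was low for Mmp16 (0.905, 3.09 CPM against 8.08 to 8.61). WT replicate 2 was high for Adamts5 (0.910, 184 CPM against 114 to 120). Of the 10, 9 were SLMAP3-/- lines, several of them the same line. The same split over all tested genes is not given and the split was not tested, so nothing is drawn from it.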

How the results depend on the processing

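No member passed an adjusted p of 0.05 under any alternative, the lowest adjusted p being 0.714 with DESeq2 and 0.786 in edgeR without a filter. At an unadjusted p under 0.05, the 2 members of the main fit (Mmp3 and Mmp23) became 1 with limma-voom (Mmp23) and 3 both with DESeq2 and without a filter (Adamts8 in addition), where 1.74, 1.62 and 2.33% of all genes did. Leaving out each line in turn gave 0 to 3 such members, with 0 without SLMAP3-/- replicate 3 and 0 without SLMAP3-/- replicate 4, where 1.24 to 3.47% of all genes tested had such a p. The number whose genotypes did not overlap was 0 in the main fit and 0 to 3 with a line left out: Mmp3, Mmp23 and Mmp14 without SLMAP3-/- replicate 1 (2.77% of all genes), Mmp23 without WT replicate 1 (4.42%) and Mmp11 without WT replicate 4 (2.10%). Adamts20 went from 0.74 to -0.35 (log2) without SLMAP3-/- replicate 1, and lay between -0.35 and 1.00 over all lines left out. Mmp3 stayed between 1.32 and 1.88 and Mmp23 between -1.49 and -0.80 over all settings. The filter kept 26 members at 10 counts in every library and 44 without it. The median fold change lay between 0.0492 and 0.169 and the median spread between 0.572 and 0.710.

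The replicate numbers did not pair the lines: deviations of same-numbered lines correlated at -0.157, 0.0585, 0.187 and -0.00323, and only replicate 3 correlated best with its own number. With the replicate number as a block, 1 member (Mmp3) had an unadjusted p under 0.05 (1.90% of all genes), and Slmap kept its log2 fold change of -1.84 with an adjusted edgeR p of 0.171. With 4 lines a genotype, differences as small as the spread between lines could not be resolved.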
